A study of Mus musculus with 16 samples.

Results

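AP-1 is a dimer of a Jun family protein with a Fos, Jun or ATF family protein, and it binds short palindromic DNA elements. Its subunit genes belong to the immediate early genes, which growth factor, stress and cytokine signals switch on within minutes through ERK, JNK and p38 kinases and serum response factor, without new protein synthesis. In tumours AP-1 has been tied to proliferation, invasion and the response to stress. Enzymatic digestion of tissue at body temperature is itself known to raise these genes, and every tumour here was digested before sorting.

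The 10 genes described were taken by symbol from the deposited count tables, which hold 49139 genes with a symbol. They are 4 Fos family genes (Fos, Fosb, Fosl1, Fosl2), 3 Jun family genes (Jun, Junb, Jund), the ATF family gene Atf3, and Egr1 and Ier2, immediate early genes outside AP-1. All 10 were found, all 10 were detected in each of the 16 libraries, and all 10 passed the filter on low counts in every comparison.

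Cells of 4T07, a mouse mammary carcinoma line, were transduced with GFP or with mCherry. A mixture of equal parts, 250000 cells, was grown in female mice, in the mammary fat pad; the labels give the mice as Balb/cJ x Bl6 and as C57BL/6J x Balb/cJ. Mice received 7000000 Jedi T cells lacking PD1 (PD1KO), which recognise a GFP peptide, by tail vein on day 7 or day 15 of tumour growth. Tumours were taken 7 days after the T cells, and the GFP cells that survived were sorted along with mCherry cells, which the T cells do not target, from the same tumours. There are 3 libraries per colour and injection day. A further 4 libraries hold mCherry cells from control tumours without GFP cells and without Jedi T cells. GFP cells without T cells were not analysed here, so survival of the T cell attack and carriage of the GFP construct cannot be told apart. Run 1 of sequencing held the day 7 libraries, and run 2 the day 15 and control libraries.

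Tumours are numbered as in the count columns, 2 to 4 for day 7, 1 to 3 for day 15 and 1 to 4 for controls. Libraries of run 1 held 9412040 to 19970822 counts and those of run 2 held 21183324 to 32808354. Levels are given as CPM, each count divided by the library total and scaled to 1000000 counts, and levels of different genes are compared only as CPM per kilobase of exon. Keratin genes Krt8 and Krt18 were detected in every library, while Epcam, another epithelial marker, lay between 0.558 and 2.62 CPM. Both keratins averaged lower in GFP than in mCherry cells. Krt8 stood at 433.5 against 826 CPM on day 7 and 363 against 547 CPM on day 15. Krt18 stood at 117 against 387.5 CPM and 101 against 206 CPM. Of 4 mammary epithelial markers tested, 2 fell and 1 rose on each day by edgeR. Of 10 fibroblast markers, Dcn and Pdgfra were the most abundant and were present in every library, at means of 308 to 716 CPM for Dcn. Dcn was higher in day 15 GFP cells, at 660, 754 and 733 CPM against 271, 342 and 312 CPM in mCherry cells. Controls held it at 199 to 559 CPM. Pdgfra overlapped between the colours on both days. Over the whole list, Dcn and Pdgfra included, 2 of 7 tested fell and 0 rose in GFP cells on day 7 by edgeR (median log2 −1.15). On day 15, 4 of 9 fell and 1 rose (median −1.53). In day 15 GFP cells against the controls, 6 of 10 fell and 2 rose (median −2.32). The collagen gene Col1a1, among those that were lower, lay at 11.2 to 29.3 CPM in day 15 GFP cells, 51.6 to 175 CPM in day 15 mCherry cells and 84.8 to 731 CPM in controls.

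Macrophage transcripts differed between the colours. The 19 macrophage and monocyte markers summed to 132 to 243 CPM in day 7 GFP libraries and to 796 to 1232 CPM in day 7 mCherry libraries. Of these markers, 17 of 19 fell in GFP cells on day 7 and 6 of 14 tested fell on day 15, where the sums were 72.5 to 90.7 CPM against 108 to 134 CPM. None of the 19 was at 0 in a whole group; Adgre1, which defines mouse macrophages, lay at 0.374 to 0.757 CPM in day 7 GFP cells and at 7.85 to 10.9 CPM in day 7 mCherry cells. Endothelial markers were lower in GFP cells as well, at summed levels of 18.8 to 20.4 CPM against 53.2 to 90.1 CPM on day 7 and of 23.9 to 33.1 CPM against 38.2 to 72.8 CPM on day 15. T and NK cell markers summed to at most 6.80 CPM in any library. Macrophages, endothelial cells and fibroblasts also express immediate early genes, and the part of these cells in the results below was not tested. In sorted bulk samples, fewer cells of a type and less RNA per cell cannot be told apart.

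Promoter sequence was matched for 7 of the 10 genes in RefSeq (GRCm38.p6); Fosl1, Egr1 and Ier2 had no entry. The 110 bases before the start of Fos and of Jun, which had the highest level per kilobase in all 5 groups, are shown as the partners of the classical dimer. Those of Atf3, which also holds a match, and of Fosb, which holds none, stand beside them for comparison. Coordinates are chr12:85473780-85473889 on the plus strand for Fos, and on the minus strand chr4:95052223-95052332 for Jun, chr7:19310046-19310155 for Fosb and chr1:191183334-191183443 for Atf3. Capitals mark matches to TGACGT (a cAMP response element core), TGANTCA (the classical AP-1 element) or TGACNTCA (its longer variant, which overlaps TGACGT where N is G), searched on both strands.
Fos: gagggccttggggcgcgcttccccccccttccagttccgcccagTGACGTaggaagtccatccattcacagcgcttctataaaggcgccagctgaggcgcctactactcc
Jun: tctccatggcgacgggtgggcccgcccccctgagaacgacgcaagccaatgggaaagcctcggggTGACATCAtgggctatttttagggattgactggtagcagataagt
Fosb: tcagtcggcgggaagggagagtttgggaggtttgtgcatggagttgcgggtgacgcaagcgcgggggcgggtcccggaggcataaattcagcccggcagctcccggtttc
Atf3: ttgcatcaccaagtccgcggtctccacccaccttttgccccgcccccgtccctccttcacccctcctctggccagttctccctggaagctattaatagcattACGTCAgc

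TGACGT stood in Fos from base -66 to -61 before the start, and its reverse complement stood in Atf3 from -8 to -3. The match in Jun, TGACATCA, lay from -45 to -38. Over 110-base windows of 32851 promoters, TGACGT was found in 4.32%, TGANTCA in 3.08% and TGACNTCA in 4.87%. None of these letters lay in the Fosb window, nor in the windows of Fosl2, Junb and Jund, which are not shown. Starts are those of RefSeq and can differ from the GENCODE gene positions given below. The Jund window (chr8:70697629-70697738, plus strand) ends well before the GENCODE start at 70698949, so it does not describe the bases next to that start. Windows of Fosl2 (chr5:32136362-32136471) and Atf3 lie inside the GENCODE genes. TATAAA, the TATA box, lay at -33 to -28 in Fos, with 3.99% of windows holding it. A match is a description of letters and was not read as a bound site.

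Fos and Jun, the founding partners of the AP-1 dimer, were the most abundant of the 10 genes per kilobase in all 5 groups. Fos stood at 521 ± 91.0 CPM per kilobase (SD, n = 3) in day 7 GFP cells and at 982 ± 69.7 (SD, n = 3) in day 15 GFP cells, and Jun at 355 ± 85.8 and 927 ± 55.1. Their order changed between groups: Fos led in day 7 GFP, day 7 mCherry and day 15 GFP cells, and Jun led in day 15 mCherry and control cells, where the difference between them was within 1 SD. Ier2 came next in both day 7 groups, and Fosb came next in both day 15 groups. Fosl2 or Jund was the lowest in every group, with Fosl2 at 11.1 ± 3.33 and Jund at 9.75 ± 2.99 CPM per kilobase in day 7 GFP cells, less than 1 SD apart.

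**Figure D1:**
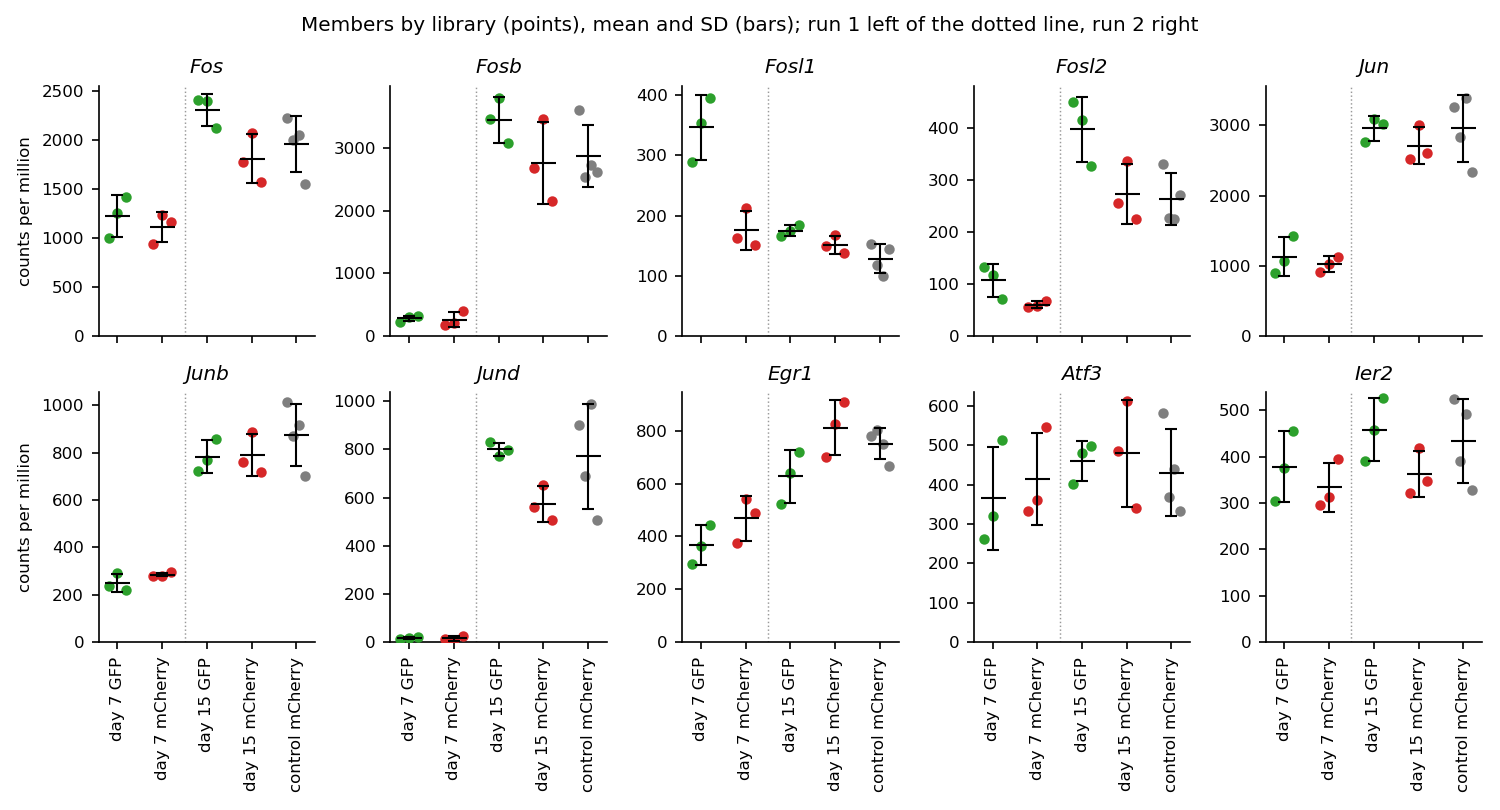
Level of each of the 10 genes in CPM (linear axes from 0) for each library, with the mean and SD per group as bars and the runs separated by a dotted line. Fosl1 and Fosl2 were higher in all 3 day 7 GFP libraries than in the mCherry libraries, while Jund was near 0 in run 1 only.

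Within the mixed tumours, 2 of the 10 genes rose and 1 fell in surviving GFP cells on day 7, and 5 rose and 1 fell on day 15, by edgeR's quasi-likelihood test with tumour as a block and an adjusted p under 0.05. As background, 8.89% of 14578 genes were called higher and 9.33% lower on day 7, and 8.94% and 10.6% of 14260 genes on day 15. The 1 of 10 that fell on each day is near those shares. The median log2 fold change over the 10 genes was 0.12 on day 7 and 0.30 on day 15, against −0.0037 and 0.0065 over all genes tested. Fosl2 rose and Egr1 fell on both days. With tumour as a block, p-values measure the spread of the GFP minus mCherry difference over the 3 tumours of a day. Only 2 residual degrees of freedom remained, and edgeR draws the spread of each gene towards that of all genes.

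Fosl1 encodes Fra-1, a Fos protein without the transactivation domain of c-Fos that is often raised in invasive mammary tumours. On day 7 it stood at 290, 354 and 396 CPM in GFP cells of tumours 2, 3 and 4, and at 163, 213 and 152 CPM in mCherry cells of the same tumours. The lowest GFP library lay above the highest mCherry library, so the groups did not overlap. The difference was 1.95-fold (log2 0.96, SE 0.13, edgeR adjusted p = 7.46e-04), the largest log2 change among the 10 genes on that day. On day 15 the levels were 166, 175 and 184 CPM in GFP cells against 149, 168 and 138 CPM in mCherry cells. GFP cells were higher in 3 of 3 tumours, but tumour 2's mCherry library lay above tumour 1's GFP library, and the test was not passed (log2 0.24, SE 0.09, edgeR adjusted p = 0.0923).

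GENCODE M21 (GRCm38, the source of all gene positions here) places Fosl1 on chromosome 19 from 5447547 to 5455946 on the plus strand, and 1163 of its 2033 exonic bases overlap Ccdc85b on the other strand. Whether counting used strand is not stated in the sources used here, so reads of the overlap cannot be told apart. Ccdc85b stood at 42.5 ± 4.83 CPM (SD, n = 3) in day 7 GFP cells and 34.7 ± 1.93 (SD, n = 3) in mCherry cells, and its own difference did not pass (log2 0.27, edgeR adjusted p = 0.153).

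Fosl2 (chromosome 5, 32135801 to 32157842, plus strand) encodes Fra-2, a close relative of Fra-1. Its day 7 levels were 133, 117 and 71.1 CPM in GFP cells and 55.1, 57.1 and 67.4 CPM in mCherry cells of tumours 2, 3 and 4. Tumours 2 and 3 differed clearly, while in tumour 4 the colours were close, and the groups still did not overlap. Fosl2 was 1.72-fold higher in GFP cells (log2 0.78, SE 0.20, edgeR adjusted p = 0.0247). This call was lost with DESeq2 (log2 0.79, adjusted p = 0.167) and without tumour 3 (log2 0.66, edgeR adjusted p = 0.132).

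On day 15 Fosl2 stood at 450, 415 and 327 CPM in GFP cells of tumours 1, 2 and 3 and at 257, 336 and 225 CPM in their mCherry cells. GFP cells were higher within each tumour, and the ranges overlapped through tumour 3's GFP and tumour 2's mCherry library. The rise was 1.49-fold (log2 0.58, SE 0.11, edgeR adjusted p = 0.00541). Fosl2 was the only one of the 10 that kept its call without tumour 3 on day 15, while without the tumour block its adjusted p was 0.0516 by edgeR.

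Fos, the prototype immediate early gene (chromosome 12, 85473890 to 85477273, plus strand), did not pass on day 7, at 998, 1258 and 1422 CPM in GFP cells against 942.5, 1236 and 1159 CPM in mCherry cells (log2 0.12, SE 0.10, edgeR adjusted p = 0.478). On day 15 its levels were 2408, 2399 and 2120 CPM in GFP cells and 1778, 2073 and 1573 CPM in mCherry cells. All 3 GFP libraries lay above all 3 mCherry libraries. The rise was 1.31-fold (log2 0.39, SE 0.10, edgeR adjusted p = 0.0235).

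Fosb (chromosome 7, 19302696 to 19310051, minus strand), whose short splice form persists after repeated stimuli in neurons, stood at 230, 300 and 312 CPM in day 7 GFP cells and 173, 206 and 394 CPM in mCherry cells (log2 0.19, SE 0.17, edgeR adjusted p = 0.481). Tumours 2 and 3 were higher in GFP cells and tumour 4 was higher in mCherry cells. Without tumour 4, Fosb was called (log2 0.49, edgeR adjusted p = 2.92e-04). On day 15 its levels were 3457, 3793 and 3069 CPM in GFP cells against 2680, 3454 and 2152 CPM in mCherry cells. GFP cells were higher in 3 of 3 tumours, and the mCherry library of tumour 2 reached into the GFP range (log2 0.36, SE 0.11, edgeR adjusted p = 0.0426).

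Among Jun genes, Jund, which unlike Jun and Junb is expressed in many resting cells and can restrain growth, rose on day 15. Its levels there were 830, 774 and 797 CPM in GFP cells and 562, 652.5 and 507 CPM in mCherry cells. The colours did not overlap, and GFP cells were 1.43-fold higher (log2 0.51, SE 0.10, edgeR adjusted p = 0.00712). This was the only one of the 6 day 15 calls that remained without the tumour block. On day 7 Jund was at 11.4, 16.1 and 21.3 CPM in GFP cells and at 13.7, 7.47 and 26.7 CPM in mCherry cells, with GFP cells higher in 1 of 3 tumours (log2 0.13, SE 0.26, edgeR adjusted p = 0.781).

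Jun (chromosome 4, 95049034 to 95052222, minus strand, a single exon), the classical partner of Fos proteins, was not called on either day. On day 7 it stood at 896, 1067 and 1431 CPM in GFP cells against 909, 1032 and 1129 CPM in mCherry cells (log2 0.10, SE 0.10, edgeR adjusted p = 0.539). The day 15 values were 2759, 3096 and 3013 CPM against 2524, 3010 and 2600 CPM (log2 0.15, SE 0.10, edgeR adjusted p = 0.309). The ranges overlapped on both days.

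Junb (chromosome 8, 84974484 to 84978718, minus strand), a weaker activator that can oppose Jun, was not called either. Day 7 levels were 238, 290.5 and 219 CPM in GFP cells and 281, 280 and 294 CPM in mCherry cells (log2 −0.22, SE 0.12, edgeR adjusted p = 0.229), and day 15 levels were 722, 771 and 857 CPM against 761, 888 and 720 CPM (log2 0.02, SE 0.10, edgeR adjusted p = 0.925). GFP cells were higher in 1 of 3 tumours on each day. Exons of Jun, Junb and Jund overlap Junos (232 of 3189 bases), Prdx2 (173 of 2301 bases) and Gm11175 (877 of 1668 bases) on the other strand; Gm11175 was listed at 0 in all libraries.

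Egr1 (chromosome 18, 34859823 to 34864984, plus strand), a zinc finger factor that serum response factor induces directly, moved the other way. On day 7 it stood at 294, 365 and 442 CPM in GFP cells and at 376, 541 and 487 CPM in mCherry cells, lower in GFP cells of 3 of 3 tumours. On day 15 it stood at 521, 642 and 719 CPM against 701, 824 and 908 CPM, again lower in 3 of 3. The ranges overlapped on both days, so the difference is seen within tumours. Egr1 fell by 0.37 on the log2 scale on day 7 (SE 0.11, edgeR adjusted p = 0.0371) and fell by 0.35 on day 15 (SE 0.08, edgeR adjusted p = 0.0163).

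The Egr1 calls depended on the pairing and on single tumours. On day 7 the edgeR adjusted p was 0.164 without the block, 0.185 without tumour 2 and 0.384 without tumour 3, and on day 15 it was 0.117 without the block, 0.106 without tumour 2 and 0.0969 without tumour 3. Over all alternatives the log2 difference stayed between −0.46 and −0.27 on day 7 and between −0.36 and −0.33 on day 15. Egr1 fell together with the macrophage markers in GFP cells, and their part in it was not tested.

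Ier2 (chromosome 8, 84661331 to 84662852, minus strand, a single exon), an early response gene encoding a nuclear protein, rose on day 15, where its levels were 391, 458 and 527.5 CPM in GFP cells against 321.5, 418 and 348 CPM in mCherry cells (log2 0.36, SE 0.10, edgeR adjusted p = 0.031). Every tumour had more in GFP cells, although the ranges overlapped. On day 7 the levels were 304, 376 and 456 CPM against 295, 312 and 394 CPM, higher in GFP cells of 3 of 3 tumours but not called (log2 0.16, SE 0.10, edgeR adjusted p = 0.31).

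Atf3 (chromosome 1, 191170296 to 191218039, minus strand), a stress-induced factor that represses as a homodimer, was not called on either day. Its day 7 levels were 263, 320 and 512.5 CPM in GFP cells and 334, 361 and 547 CPM in mCherry cells, lower in GFP cells of 3 of 3 tumours (log2 −0.22, SE 0.10, edgeR adjusted p = 0.145). Leaving out tumour 4 brought an adjusted p of 0.0243 (log2 −0.25). On day 15 the levels were 402, 481 and 497 CPM against 485, 614 and 340 CPM, with the GFP range inside the mCherry range and an estimate of −0.0014 (edgeR adjusted p = 0.996).

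Most day 15 calls rested on the pairing and on tumour 3. Without the block the edgeR adjusted p was 0.0674 for Fos, 0.203 for Fosb and 0.0986 for Ier2. Without tumour 3 it was 0.18 for Fos, 0.319 for Fosb, 0.072 for Jund and 0.25 for Ier2. None of the 5 genes that rose changed sign in these fits.

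**Figure D2:**
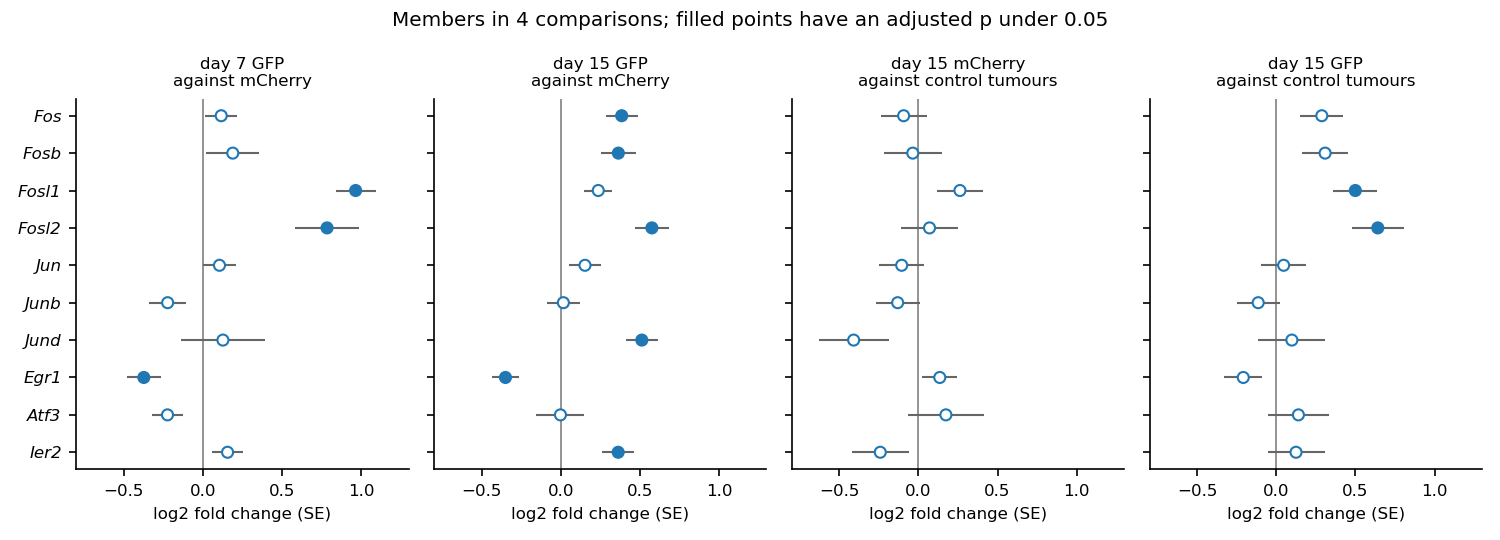
Log2 fold change with its SE (bars) of the 10 genes in 4 comparisons; filled points have an edgeR adjusted p under 0.05. Fosl2 is filled and positive in 3 panels, Egr1 is filled and negative in both GFP against mCherry panels, and no point is filled for day 15 mCherry cells against control tumours.

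The difference between the GFP effects on day 15 and day 7 was tested in the 12 mixed tumour libraries. None of the 10 genes passed, and of 16626 genes tested 0.102% had a higher and 0.108% a lower effect on day 15. Fosl1 came nearest, with a log2 difference of the effects, day 15 minus day 7, of −0.73 (SE 0.17, unadjusted p = 0.00108, edgeR adjusted p = 0.128); it was the only one with an unadjusted p under 0.05. For Fosl1, DESeq2 gave an adjusted p of 0.0146 (log2 −0.71) and edgeR without a filter gave 5.68e-04 (log2 −0.72). Day and sequencing run coincide in this contrast and cannot be told apart.

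Control tumours show the levels in mCherry cells that met neither GFP cells nor Jedi T cells. Tumour age cannot be told apart in comparisons with them, because harvest time and the number of injected cells are not given for the controls. Day 15 mCherry cells did not differ from them for any of the 10 genes by edgeR's quasi-likelihood test, as for all 14800 genes tested (0% higher, 0% lower); 2104 genes had an unadjusted p under 0.05, none of them among the 10, and DESeq2 called 224 genes, again none of the 10. The lowest unadjusted p was that of Jund, 0.0986, with 507 to 652.5 CPM in day 15 mCherry cells and 506 to 990 CPM in controls (log2 −0.41, SE 0.22). The other estimates lay between −0.24 for Ier2 and 0.26 for Fosl1.

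Day 15 GFP cells were then set against the same control libraries, so that these comparisons share samples with each other and with those above. Fosl1 and Fosl2 rose and none of the 10 fell, while 6.09% of 14801 genes rose and 6.97% fell. Macrophage markers summed to 117 to 314 CPM in controls against 72.5 to 90.7 CPM in day 15 GFP cells. Endothelial markers summed to 34.8 to 145 CPM against 23.9 to 33.1 CPM, also without overlap. Fibroblast marker sums overlapped, at 1369 to 2836 CPM in controls and 1350 to 1505 CPM in day 15 GFP cells. Control 2 stood apart, with Col1a1 at 731 CPM and the endothelial gene Pecam1 at 16.6 CPM, where the other controls held at most 202 and 4.72 CPM. The part of these cells in the comparison was not tested. Fosl1 stood at 152, 118, 99.5 and 144 CPM in controls 1 to 4, below all 3 day 15 GFP libraries (log2 0.50, SE 0.14, edgeR adjusted p = 0.0478). Fosl2 stood at 332, 227.5, 224 and 271 CPM in the controls, of which control 1 lay above the lowest GFP library (log2 0.64, SE 0.16, edgeR adjusted p = 0.0383).

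Both calls were lost without day 15 GFP tumour 1 (edgeR adjusted p = 0.111 for Fosl1 and 0.132 for Fosl2), GFP tumour 2 (0.11 and 0.103), control 2 (0.101 and 0.0806) or control 3 (0.078 and 0.0902), each p from edgeR. Fosl1 was also lost without GFP tumour 3 (0.116) and Fosl2 without control 4 (0.0544), by the same edgeR test. Without control 1, Fosb was called as well (log2 0.45, edgeR adjusted p = 0.044).

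Fos, Fosb, Jund and Ier2, which rose against the mCherry cells of the same tumours, did not pass against the controls. Fos stood at 2222, 1996, 2054 and 1555 CPM in controls 1 to 4 (log2 0.29, SE 0.13, edgeR adjusted p = 0.176). Fosb stood at 3597, 2539, 2730 and 2618 CPM (log2 0.31, SE 0.15, edgeR adjusted p = 0.181). Control 1 was the highest for Fos and Fosb, and for both it lay within the GFP range.

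Jund stood at 900, 690.5, 990 and 506 CPM in the controls, and controls 1 and 3 lay above every GFP library (log2 0.10, SE 0.21, edgeR adjusted p = 0.781). Ier2 was at 526, 391, 493 and 328 CPM in the controls (log2 0.13, SE 0.18, edgeR adjusted p = 0.667). Egr1, at 779, 804, 749.5 and 668 CPM, was lower in GFP cells by an amount that did not pass (log2 −0.21, SE 0.12, edgeR adjusted p = 0.263). In each of these genes the control range overlapped the GFP range.

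For the genes not called in any comparison, the controls held Jun at 3266, 2840, 3387 and 2341 CPM, Junb at 1016, 872, 916 and 702.5 CPM and Atf3 at 581, 368, 440 and 333 CPM. Control 4 was the lowest and control 1 high in each. Their differences from day 15 GFP cells were log2 0.05 for Jun, −0.11 for Junb and 0.14 for Atf3, each smaller than its SE of 0.14, 0.14 and 0.19.

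The 10 genes were often high or low together in a library. All 10 lay above their run 2 median in control 1 and none did in control 4, and 9 did in the mCherry cells of day 15 tumour 2 against 1 each in tumours 1 and 3. In GFP cells 5, 8 and 9 of the 10 lay above the median in day 15 tumours 1, 2 and 3, and 2, 8 and 9 in day 7 tumours 2, 3 and 4. Over all genes, 43.6% to 61.1% lay above the run median in each library. The 10 genes of a library share its digestion, sort and RNA and are not independent of each other.

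**Figure D3:**
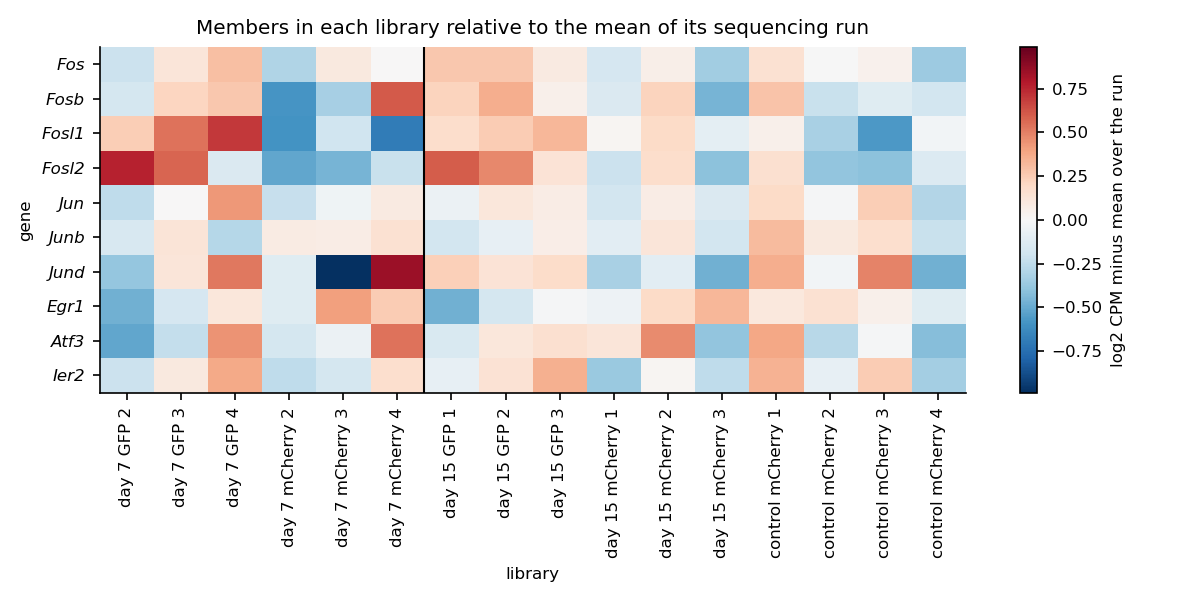
Log2 CPM of each gene minus its mean over the libraries of the same run (colour scale), by library, with a line between run 1 and run 2. Control 1 is positive and control 4 negative for all 10 genes, and Fosl1 is positive in all 6 GFP libraries.

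Summed levels of 30 other immediate early genes and of 14 heat shock genes, which digestion is also known to raise, were compared with this pattern. The immediate early sum was 6738 to 8063 CPM in day 7 GFP cells against 4605 to 5705 CPM in mCherry cells, and 10990 to 11700 CPM against 7155 to 9894 CPM on day 15. Neither day showed overlap of the colours. Controls ranged from 7198 CPM in control 4 to 10480 CPM in control 1, with the same ends as the 10 genes.

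Heat shock sums were 9311 to 11640 CPM in GFP and 8185 to 9174 CPM in mCherry cells on day 7, and 7763 to 9380 CPM and 7422 to 9182 CPM on day 15, against 6594 to 7668 CPM in controls. They were higher in all 3 day 7 GFP libraries than in the mCherry libraries, and the colours overlapped on day 15. Hsp90ab1 (2449 to 3962 CPM) and Hspa8 (1095 to 2618 CPM) held the largest parts of the sums. Hspa1a lay at 1.35 to 20.7 CPM. The part of digestion or sorting in the differences between colours was not tested.

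The make-up of the Fos family, as shares of its CPM per kilobase, differed by colour on day 7. Fosl1 made up 22.8% ± 0.229 (SD, n = 3) in day 7 GFP cells and 14.3% ± 2.26 (SD, n = 3) in mCherry cells, and Fos made up 69.6% ± 0.923 and 77.9% ± 0.620. These ranges did not overlap. On day 15 Fosl1 made up 5.22% ± 0.654 of the family in GFP cells, 5.72% ± 0.403 in mCherry cells and 4.62% ± 1.03 in controls (SD, n = 3, 3 and 4), with overlapping ranges. Fosb held 33.2% ± 1.25 in day 15 GFP cells (run 2) and 6.02% ± 0.211 in day 7 GFP cells (run 1). Day and run cannot be told apart in shares set across the days.

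In the Jun family Jund made up 2.03% ± 0.278 (SD, n = 3) in day 7 GFP cells and 27.5% ± 1.89 (SD, n = 3) in day 15 GFP cells. Within run 2 its share was 22.4% ± 0.986 in mCherry cells and 25.7% ± 2.74 in controls. Day 15 GFP libraries lay above the mCherry libraries of the same tumours and overlapped the controls.

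**Figure D4:**
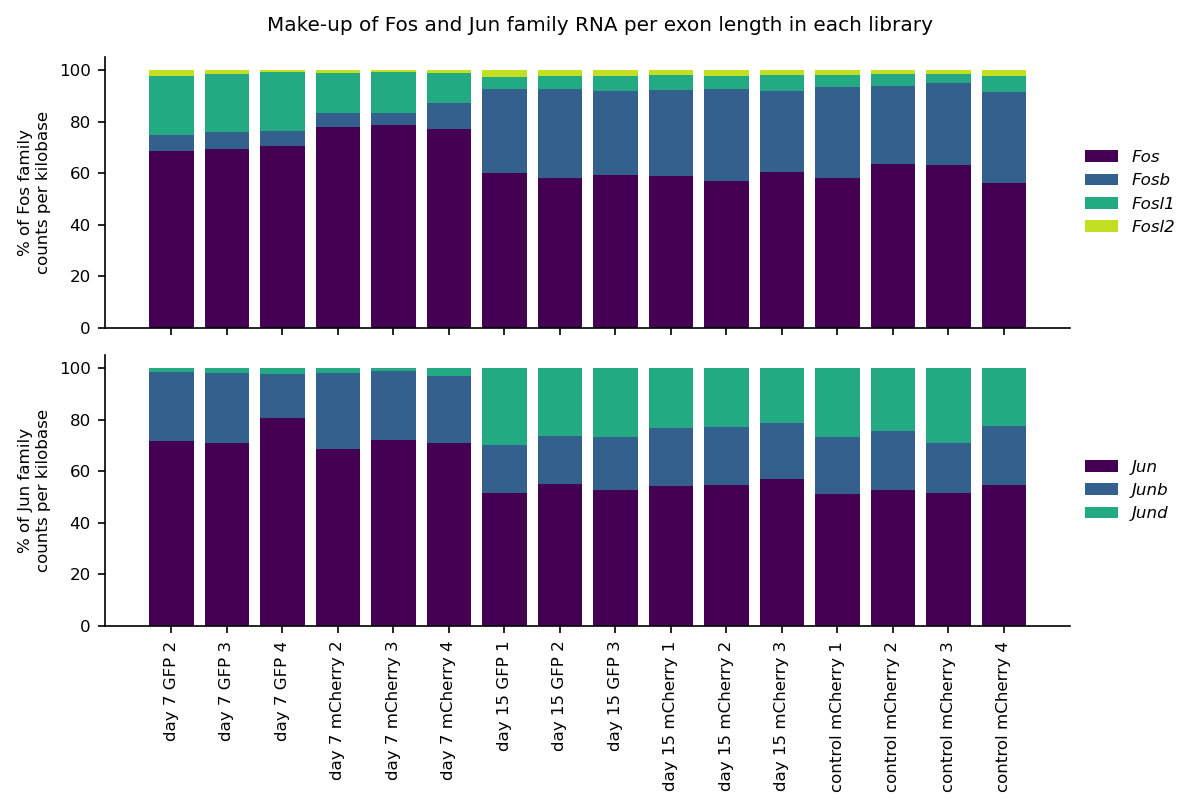
Shares (percent, stacked bars to 100%) of each Fos family gene (top) and Jun family gene (bottom) in the family's CPM per kilobase of exon, by library. Fosl1 takes a mean of 22.8% of the top bars in day 7 GFP cells, and Jund is a thin strip in run 1 (2.03% in day 7 GFP cells) and 22.4% to 27.5% of the bottom bars in run 2, by group mean.

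Levels of several genes differed strongly between the runs. Jund was 36.0-fold higher in day 15 than in day 7 mCherry cells, a ratio that 31 of 14244 genes reached or passed, and Fosb was 10.7-fold higher, a ratio reached by 158. Fosl2 was 4.56-fold, Junb 2.77-fold and Jun 2.65-fold higher, while Fos was 1.63-fold and Egr1 1.73-fold higher. Atf3 at 1.16-fold, Ier2 at 1.09-fold and Fosl1 at 0.863-fold lay nearest to 1. Jund is a single-exon gene on chromosome 8 (70698949 to 70700616, plus strand). Some mitochondrial genes also differed between the runs: mt-Co2 lay at 91.0 to 108 CPM in run 1 and 0.346 to 1.01 CPM in run 2, and mt-Co3 at 162 to 189 CPM and 0.407 to 1.13 CPM, while mt-Co1 lay at 3830 to 6756 CPM and 4092 to 7181 CPM. Whether library preparation, alignment and gene models were the same in both runs is not stated in the sources used here. The ratios and the family shares of the 2 runs, those of Jund and Fosb among them, may therefore not be on one scale. Day of injection and sequencing run cannot be told apart here, and these ratios were given no test.

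The 30 other immediate early genes were described next. On day 7, 13 of 29 tested rose and 3 fell, with a median log2 change of 0.32, beside 8.89% and 9.33% of all genes. On day 15, 15 of 30 rose and 2 fell, with a median of 0.37, beside 8.94% and 10.6%. Of the 29 tested on both days, 10 rose on both: Ccn1 and Ccn2, matricellular targets of YAP and serum response factor, Srf itself, Gadd45b, Ptgs2, Sgk1, Arc, Ier5, Klf2 and Klf6. They make up 76.9% of those that rose on day 7 and 66.7% of those that rose on day 15. Among all 13012 genes tested on both days, 682 rose on both, which is 53.3% of those that rose on day 7 and 55.5% of those that rose on day 15. Leaving out tumours moved these counts by over 1.5 times: 8 rose on day 7 without tumour 3, 9 rose on day 15 without tumour 3, and without the block 9 rose on day 15.

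Ccn2 stood at 974.5, 935 and 893 CPM in day 7 GFP cells against 437, 453 and 495 CPM (log2 1.00, SE 0.11, edgeR adjusted p = 2.87e-04), and at 944, 1010 and 926 CPM against 352, 454 and 428 CPM on day 15 (log2 1.26, SE 0.10, edgeR adjusted p = 5.7e-05). Sgk1, a kinase gene induced by serum and glucocorticoid, rose 2.02-fold on day 7. Ptgs2, which encodes the prostaglandin synthase COX-2, rose 2.17-fold on day 7 and, against the controls, 2.33-fold on day 15. Gadd45b, a stress sensor gene, rose 1.98-fold on day 15 and 2.02-fold against controls. Both calls against controls were lost without GFP tumour 1 (edgeR adjusted p = 0.0514 for Ptgs2 and 0.0511 for Gadd45b). Ier3, an early gene tied to survival, was the only one of the list to fall on both days, by 0.83 and by 0.60 on the log2 scale (edgeR adjusted p = 3.63e-04 and 0.00433).

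**Figure D5:**
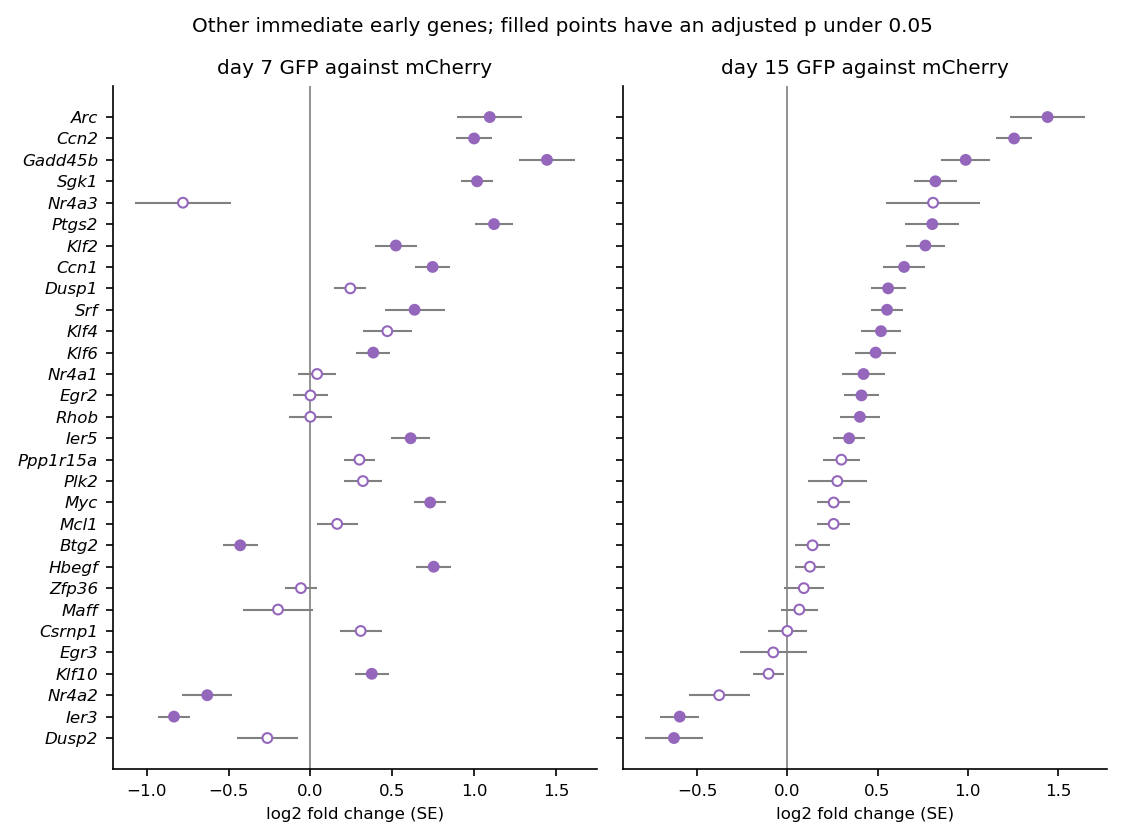
Log2 fold change with its SE (bars) of the 30 other immediate early genes, GFP against mCherry, ordered by the day 15 value; filled points have an edgeR adjusted p under 0.05 and Egr3 was not tested on day 7. Filled points to the right of 0 number 13 on day 7 and 15 on day 15.

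Against the controls 8 of the 30 rose in day 15 GFP cells and none fell by edgeR, beside 6.09% and 6.97% of all genes, where 1 fell at an unadjusted p under 0.05 and DESeq2 called 11 rises and 1 fall. Without GFP tumour 1, 2 or 3 the rises were 0, 2 and 4, and without control 2 or 3 they were 5 and 4. Day 15 mCherry cells against controls gave 0 of 30 by edgeR and by DESeq2. Egr2, of the same family as Egr1 and named after its value was seen, rose 1.33-fold on day 15 (edgeR adjusted p = 0.014), where Egr1 fell. The Egr2 call was lost without the block (edgeR adjusted p = 0.0529) and without tumour 3 (0.115). Egr3, another of the family, was not called on day 15, with GFP cells higher in 1 of 3 tumours.

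Of 18 transcripts of kinases and factors upstream of AP-1, 1 rose and 1 fell on each day, counts that are no result about these genes beside the shares over all genes (8.89% higher and 9.33% lower on day 7, 8.94% and 10.6% on day 15). Map3k1, an activator of JNK, rose by log2 0.82 on day 15 (edgeR adjusted p = 3.20e-04), and Map2k6, an activator of p38, fell by 1.66 on day 7 (9.40e-04) and by 1.40 on day 15 (0.00146). These calls held under all 8 alternatives. The day 7 call of Map3k1 (log2 0.52, edgeR adjusted p = 0.0487) was lost under 5 of 8, with an adjusted p of 0.0629 by DESeq2 and, by edgeR, of 0.0575 with a minimum count of 50, 0.184 without the block, 0.142 without tumour 2 and 0.33 without tumour 3. Without tumour 4, 4 upstream genes rose.

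Against the controls 2 of the 18 fell and none rose by edgeR, where 2 were higher at an unadjusted p under 0.05 and DESeq2 called 1 rise, beside 6.09% higher and 6.97% lower over all genes. Map2k6 fell by 1.39 and Mrtfa, a coactivator of serum response factor, by 0.31. Map2k6 was lost without GFP tumour 1 (edgeR adjusted p = 0.0705) and GFP tumour 2 (0.062). Mrtfa was lost without GFP tumour 1 (edgeR adjusted p = 0.0958), 2 (0.0802) or 3 (0.086) and without control 1 (0.0599), 2 (0.0596) or 3 (0.0668).

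Of 17 genes of ERK feedback, 4 rose and 3 fell on day 7, beside 8.89% and 9.33% of all genes, and 3 rose and 3 fell on day 15, beside 8.94% and 10.6%. Among them the phosphatase gene Dusp5 rose by 0.70 on day 15, and Etv4, an ETS factor gene, fell by 0.57 on day 15, calls that held under all 8 alternatives. The ETS factor genes Etv1 and Etv5 fell by 0.47 and by 0.51 on day 7, calls lost without tumour 2 (edgeR adjusted p = 0.108 and 0.154) and without tumour 3 (0.11 and 0.0569). On day 7 the list gave 0 falls without tumour 2, and 1 rise and 1 fall without tumour 3. On day 15 it gave 1 fall without tumour 2, 1 rise without tumour 3, and 2 rises and 2 falls without the block.

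Against the controls 2 ERK feedback genes rose and 1 fell, shares of the 17 that stand beside 6.09% and 6.97% over all genes, while DESeq2 gave 3 and 3. Etv4 fell by 0.69 and Spry4, a feedback inhibitor gene, rose by 0.45. Without GFP tumour 1 there were 0 rises and 0 falls, without GFP tumour 2 there were 1 and 0, and without GFP tumour 3 or control 3 no gene rose and 1 fell; without control 1, 2 or 4 there was 1 rise, with 2 falls without control 4. Etv4 was lost without GFP tumour 1 (edgeR adjusted p = 0.0599) or 2 (0.0523), and Spry4 without GFP tumour 1 (0.0831), 2 (0.0589) or 3 (0.0834) and without control 1 (0.0555) or 3 (0.0576).

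Among 20 other bZIP genes, which can pair or compete with AP-1 subunits, 4 rose and 3 fell on day 7, beside 8.89% and 9.33% of all genes, and 7 rose and 3 fell on day 15, beside 8.94% and 10.6%. Leaving out tumour 2 or 3 on day 7 gave 2 falls, and without the block 2 fell on each day and 4 rose on day 15. Leaving out tumour 4 on day 7 gave 8 rises, and leaving out tumour 3 on day 15 gave 3 rises and 0 falls; tumour 2 left out there gave 2 falls. Batf2, an interferon-inducible partner of Jun proteins, rose 5.99-fold on day 7 and 2.01-fold on day 15, the latter call lost without the block (edgeR adjusted p = 0.0909). Ddit3, the stress factor CHOP, rose 1.68-fold on day 15. Against controls 3 of the 20 rose and 2 fell, beside 6.09% and 6.97% of all genes. Without GFP tumour 1 or 2 none rose, and without GFP tumour 3, control 2 or control 3 there was 1 rise; each of these and control 1 left out gave 1 fall. Crem, a cAMP-responsive factor, rose 1.40-fold against controls (edgeR adjusted p = 0.0182), a call lost without GFP tumour 1 (0.0653), GFP tumour 2 (0.0547) or control 2 (0.05).

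None of the genes often described as AP-1 targets was called higher by edgeR with the filter on low counts. Of 19 tested, 0 rose and 4 fell on day 7 (median log2 −0.34), and 0 rose and 11 fell on day 15 (median −0.79); against the controls 0 rose and 6 fell (median −0.50). Over all genes 9.33%, 10.6% and 6.97% fell. At an unadjusted p under 0.05, 2 were higher and 8 lower on day 7, 1 higher and 15 lower on day 15, and 0 higher and 8 lower against the controls. DESeq2 likewise called 0 rises and 4, 11 and 8 falls. Without a filter on low counts 1 rose on each day, and 7 and 14 fell. On day 7, 1 rose and 7 fell without tumour 4, and 2 fell without tumour 3 or without the block. The falls against controls dropped to 1 without GFP tumour 1 or 2, to 3 without GFP tumour 3 or control 2, and to 2 without control 3. Mmp3, which encodes stromelysin, stood at 226, 288.5 and 223 CPM in day 7 GFP cells against 421, 611 and 314 CPM, and at 107, 109 and 131 CPM against 232, 240 and 266 CPM on day 15. GFP libraries were lower throughout, without overlap, by 0.84 and by 1.07 on the log2 scale (edgeR adjusted p = 0.00117 and 4.10e-05).

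The collagenase gene Mmp13 fell by 1.21 on day 15, and the cytokine gene Il11 fell by 0.68 on day 7. Tgfb1, a growth factor gene, and Timp1, a metalloproteinase inhibitor gene, fell by 0.73 and by 0.50 against controls, the Timp1 call being lost without GFP tumour 1 (edgeR adjusted p = 0.0831) or 2 (0.0818). Mmp3, Il11 and Areg (listed in the files under the symbol Mcub, matched by its identifier) fell on both days, Areg on day 7 only with the block (edgeR adjusted p = 0.0982 without it) and with tumour 3 (0.214 without it). Several of these genes, such as Tgfb1 and Plaur, are also expressed by macrophages, whose markers fell in the same comparisons, and their part was not tested.

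Heat shock genes gave 2 rises and 1 fall among 14 on day 7 and 3 rises and no fall on day 15, beside 8.89% higher and 9.33% lower over all genes on day 7 and 8.94% and 10.6% on day 15; by DESeq2 these were 4 rises and 1 fall, and 4 rises and no fall. Without the block 0 rose on day 7 and 1 on day 15, and without a filter on low counts 5 and 8 rose. Without tumour 2 or 3 on day 7 none rose, without tumour 4 on day 7 there were 6 rises, and on day 15 there were 5 without tumour 2 and 1 without tumour 3. The small chaperone gene Hspb1 fell by 0.43 and Hsph1 rose by 0.34 on day 7, and Dnajb4 rose by 0.51 on day 15. Without the block the edgeR adjusted p was 0.208 for Hspb1, 0.255 for Hsph1 and 0.0937 for Dnajb4; Hspb1 was also lost without tumour 3 (0.184) and Hsph1 without tumour 2 (0.185) or 3 (0.285). Against controls 5 of 14 rose, beside 6.09% of all genes (0 without GFP tumour 1, 1 without GFP tumour 2 or control 2, 2 without control 3 and 3 without control 4), with Hsp90aa1 at 1.68-fold and Hspa8 at 1.38-fold (edgeR adjusted p = 0.0132 and 0.0193). Both were lost without GFP tumour 1 (edgeR adjusted p = 0.0513 and 0.0696), and Hspa8 also without GFP tumour 2 (0.0683) or control 2 (0.0526).

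Genes of most similar pattern were sought among 11583 genes by the root mean square difference in log2 CPM over the 16 libraries, after each run's mean was removed. The closest to Fosb were Phlda1 (0.11) and Nr4a1 (0.16), both early response genes, and Dusp1 (0.16), an early phosphatase gene, was closest to Ier2, before Rab11fip5 (0.16). Fosl1 was closest to Camk2d (0.15) and Ppm1l (0.17), and Fosl2 to Hipk2 (0.15) and Tom1 (0.17). All genes of a library share its depth and handling, and these likenesses were given no test.

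The remaining neighbours were Gprc5a (0.12) and Sde2 (0.13) for Fos, Phf8 (0.12) and Zfp507 (0.13) for Jun, Chic2 (0.11) and Plekhg5 (0.11) for Junb, and Fry (0.19) and Map2 (0.23) for Jund. Egr1 lay nearest to Fut11 (0.11) and Cdk14 (0.14), and Atf3 to Bmp2k (0.21) and Gm7967 (0.21). The 10 genes themselves varied by 0.18 (Junb) to 0.45 (Jund) on the same scale.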

How the data were processed

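The 16 libraries hold RNA of sorted 4T07 cells. A company produced the deposited count table from the reads (GENEWIZ, per the labels' protocols). The genome was mm10 and DESeq2 was used, per the submitters' processing notes. Aligner, counter, annotation and use of strand are not stated in the sources used here. Tables of the authors' own comparisons were deposited too and were not used. The day 7 table gives symbols only; all 49315 stand in the same order as in the other table, whose identifiers were carried over. Rows without a symbol (176 of 49315, at most 0.011% of a library's counts) were dropped. Day 7 and control columns could be matched to the labels only as groups.

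Genes were filtered (filterByExpr, minimum count 10, minimum total 15), scaled by TMM and tested across the whole table by the quasi-likelihood method of edgeR 4.0.16 (R 4.3.3), with Benjamini-Hochberg adjustment and a threshold of 0.05. GFP and mCherry cells, and the difference between days, were compared with tumour as a block, since the series' design calls the mCherry cells paired controls. Day 15 pairs are given by the labels and day 7 pairs by column number. Residual correlations of same-numbered libraries were 0.126 to 0.192 on day 7 and 0.111 to 0.303 on day 15. Those of other pairs were −0.24 to 0.02. Each colour was first centred on its mean, so positive values in same-numbered pairs push those of other pairs down. Each SE was derived as the absolute log2 fold change divided by the root of its F statistic. The script was tested on simulated data that held no differences between tumours, so the gain from the block was not part of that test.

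Members and lists were chosen with earlier results of these data known. Named were the 10 members and the 2 called genes of smallest p per pathway list and comparison. The 2 genes outside the 10 that were nearest in pattern to each member were named as well. So were the 2 most abundant markers per cell type list, of which only those that bear on a result are printed. Some genes that this rule names are not reported here. The alternatives tried were another tool (DESeq2 1.42.0), that tool's size factors, no filter, a minimum count of 50, no block, a joint fit of run 2, and leaving out each tumour or library.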

Additional observations from a re-analysis of the deposited data

Results flagged for a closer look

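The change in Batf2, an interferon-inducible bZIP partner of Jun proteins, was smaller on day 15 than on day 7, with a log2 difference of −1.57 between the GFP effects (SE 0.28, edgeR adjusted p = 0.0458). On day 7 Batf2 stood at 64.1, 60.2 and 61.6 CPM in GFP cells and at 11.3, 12.8 and 7.03 CPM in mCherry cells. On day 15 the GFP libraries of tumours 1, 2 and 3 held 11.8, 24.0 and 44.8 CPM against 8.86, 13.0 and 15.1 CPM in mCherry cells, so that the GFP level was far from uniform and tumour 1 was close to its mCherry library. The call was lost under 5 of 11 alternatives, with an edgeR adjusted p of 0.0825 with a minimum count of 50, 0.46 without the block, 0.154 without day 15 tumour 1, 0.191 without day 15 tumour 2 and 0.193 without day 7 tumour 2; the log2 difference lay between −1.60 and −1.34 in these. Day and sequencing run cannot be told apart in this difference.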

How the results depend on the processing

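Of the log2 fold changes of the 10 genes under the alternatives, 72 of 80 on day 7, 63 of 80 on day 15, 114 of 120 for day 15 mCherry cells against controls, 107 of 120 for day 15 GFP cells against controls and 104 of 110 for the difference between days kept their direction and their side of the threshold. With 3 tumours a group and 2 residual degrees of freedom, leaving out 1 tumour moved the number of genes called from 2656 to between 1156 and 4558 on day 7, and from 2782 to between 1736 and 2546 on day 15. The members called ranged from 1 to 5 and from 1 to 6. Against controls, leaving out 1 library gave 0 to 7 genes and 0 members for mCherry cells, and 287 to 2093 genes and 0 to 3 members for GFP cells. For the difference between days it gave 3 to 126 genes and 0 members. Without the replicate block, 1 member was called on day 15, and 2 genes for the difference between days. DESeq2 called 224 genes for mCherry cells against controls, and for the difference 136 genes and 1 member; without a filter on low counts the difference gave 354 genes and 1 member, and with a minimum count of 50 it gave 14 genes. The cause was not tested. A direction turned only in estimates that passed no test, and for these genes the range over single omissions was as follows. On day 7 Jund lay between −0.3214 (without tumour 3) and 0.4264. On day 15 Junb lay between −0.1064 (without tumour 3) and 0.1405, and Atf3 between −0.2787 and 0.1901 (without tumour 2), with 0.0992 without tumour 1, 0.0049 with DESeq2, 9e-04 with its size factors and 0.0069 without a filter. For mCherry cells against controls Fosl2 lay between −0.1188 (without mCherry tumour 2) and 0.2041, with −0.0017 without control 2 and −0.0055 without control 3; Atf3 between −0.0546 (without mCherry tumour 2) and 0.3599; and Fosb between −0.2386 and 0.1063 (without mCherry tumour 3), with 0.0952 without control 1. For GFP cells against controls Jun lay between −0.0608 and 0.1213 and Jund between −0.0672 and 0.2447, both lowest without control 4. For the difference Atf3 lay between −0.0658 (without day 15 tumour 3) and 0.4094, Fosl2 between −0.5638 and 0.0573 (without day 7 tumour 2), Egr1 between −0.0787 (without day 7 tumour 3) and 0.1287, and Fosb between −0.0996 (without day 7 tumour 4) and 0.3512. Depth was lowest for Jund in run 1, with 107 to 346 counts per library; the others held at least 872.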
